A study of Homo sapiens with 15 samples.

Results

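Interferon response genes are the genes that cells switch on when interferon reaches its receptors. A list of 47 such genes was followed in the established human breast cancer line MDA-MB-436, which has no working BRCA1. The members were the probes annotated to a listed gene whose detection p was under 0.05 on 3 or more of the 15 arrays; 56 probes of 41 genes met this, of 23680 such probes and 12302 tested genes in all. Each of the 41 genes was represented by its brightest probe. The other 6 listed genes, EPSTI1, IFIT5, MX2, SAMD9L, STAT2 and TRIM22, had no probe named in the annotation used here and were not analysed here. Treatment lasted 7 days, and there were 3 Illumina HumanHT-12 arrays in each of 5 groups. The groups were 100 nM AG014699 with LY294002, called the combination here, 100 nM AG014699, 10 nM AG014699, LY294002, and the solvent DMSO. AG014699 (rucaparib) blocks PARP1, an enzyme of DNA break repair, and LY294002 blocks PI3K, a kinase of growth factor signalling. The sources used here give no dose of LY294002, all groups shared the same BRCA1-deficient background, and no group was given interferon. The list therefore holds genes known to respond to interferon, and their response to it was not measured in these cells.

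Type I interferons bind the receptor pair IFNAR1 and IFNAR2, and the kinases JAK1 and TYK2 then pass the signal on. STAT2 and IRF9 take part in a complex that binds the interferon-stimulated response element (ISRE) in promoters, while the response to interferon gamma runs mainly through the gamma-activated site (GAS). The induced proteins sense viral RNA, block viral entry and release, attach the ubiquitin-like protein ISG15 to other proteins, and damp the signal again. Tumour cells can keep some of these genes on without infection.

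All levels below are normalized log2 signals, and a change is a difference of group means with the standard error (SE) of a limma fit to all 15 arrays. A gene was called, and the words rose and fell are used, at an adjusted p under 0.05 (limma with Benjamini-Hochberg adjustment over 12302 genes). The study refers to its arrays as triplicates without saying whether they came from separate cultures, so the p-values reflect the spread among these arrays alone, possibly a technical one, and 3 arrays a group limit the precision. Between 18971 and 20808 probes were detected per array. Of the 41 members, 35 were detected on all 15 arrays, and OAS1, OAS2, IFITM1, CMPK2, IFI44L and IFI27 were not. The mesenchymal markers VIM, CD44, CAV1 and AXL, 4 of 6 listed, were detected on all 15 arrays. Of 8 luminal markers 5 were measured: FOXA1, KRT8 and KRT18 were detected on all 15 arrays, ERBB3 on 8 and the oestrogen receptor gene ESR1 on 3. Of 7 leukocyte markers 2 were measured, CD14 and ITGAM, and their summed linear signal was 284 to 331 on combination arrays, 231 to 299 on 100 nM arrays, 553 to 658 on 10 nM arrays and 304 to 364 on LY294002 arrays, against 468 to 510 on DMSO arrays. CD14 fell by 1.03 at 100 nM and ITGAM rose by 0.69, and their part in the results below was not tested. In a bulk RNA sample, fewer cells of a type and less RNA per cell cannot be told apart.

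The promoters of several members are shown because they carry matches to the ISRE, the response element described above. RefSeq promoters of build GRCh38.p14, each 250 bases before and 50 after a gene's start, were found for 38 of the 47 listed genes. The ISRE was searched as GAAANNGAAA on one strand or TTTCNNTTTC on the other, where adjoining matches may overlap. It was found for 27 of the 38 genes (71.1%), against 1195 of 27305 genes with a promoter entry (4.38%). The GAS motif, TTCNNNGAA, reads the same on both strands and was found for 13 of the 38 (34.2%), against 2560 of all genes (9.38%). Because the list was made of known interferon targets, these shares describe the list. The first 6 stretches below belong to genes that fell in combination-treated cells, HERC5 rose there, and ISG15 was not called. They lie upstream of the annotated start and run 5′ to 3′ on the gene's strand, with ISRE matches in capitals.
BST2 (chr19:17405726-17405785, minus strand): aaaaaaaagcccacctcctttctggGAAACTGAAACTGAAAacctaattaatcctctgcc
DDX60 (chr4:168318806-168318865, minus strand): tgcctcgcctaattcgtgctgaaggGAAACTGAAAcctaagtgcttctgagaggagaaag
GBP1 (chr1:89065301-89065360, minus strand): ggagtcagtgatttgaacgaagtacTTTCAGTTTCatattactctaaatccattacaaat
IFITM3 (chr11:320861-320920, minus strand): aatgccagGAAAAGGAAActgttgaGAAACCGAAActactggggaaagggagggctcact
PARP9 (chr3:122564307-122564366, minus strand): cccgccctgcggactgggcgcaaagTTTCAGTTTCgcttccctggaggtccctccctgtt
LGALS3BP (chr17:78979947-78980006, minus strand): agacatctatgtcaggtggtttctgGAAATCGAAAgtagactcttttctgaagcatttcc
HERC5 (chr4:88456969-88457028, plus strand): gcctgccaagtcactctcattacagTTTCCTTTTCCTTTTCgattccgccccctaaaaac
ISG15 (chr1:1013359-1013418, plus strand): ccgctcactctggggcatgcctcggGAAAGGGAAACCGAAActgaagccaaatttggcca
Among members with a measured level and a promoter entry, the ISRE was found for 14 of the 18 that fell in combination-treated cells (77.8%), for HERC5, the 1 that rose, and for 10 of the 15 that were not called (66.7%). A match is a description of the letters and not a binding site.

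The first question was what the PARP1 inhibitor did to these genes. In cells given 100 nM AG014699, 15 of the 41 members fell (36.6%) and 3 rose (7.32%), while over all tested genes 10.8% fell and 10.7% rose, 21.5% in all. The median change of the members was -0.37, beside -0.03 for all tested genes. The 3 DMSO arrays are shared by every comparison against DMSO. The genes that fell spanned entry restriction, PARP family enzymes and other effectors, and the 3 that rose were IRF7, IFIT2 and SP110. On 20 members every 100 nM array was lower than every DMSO array, and on 7 every one was higher (all genes 18.6% and 17.4%).

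**Figure D1:**
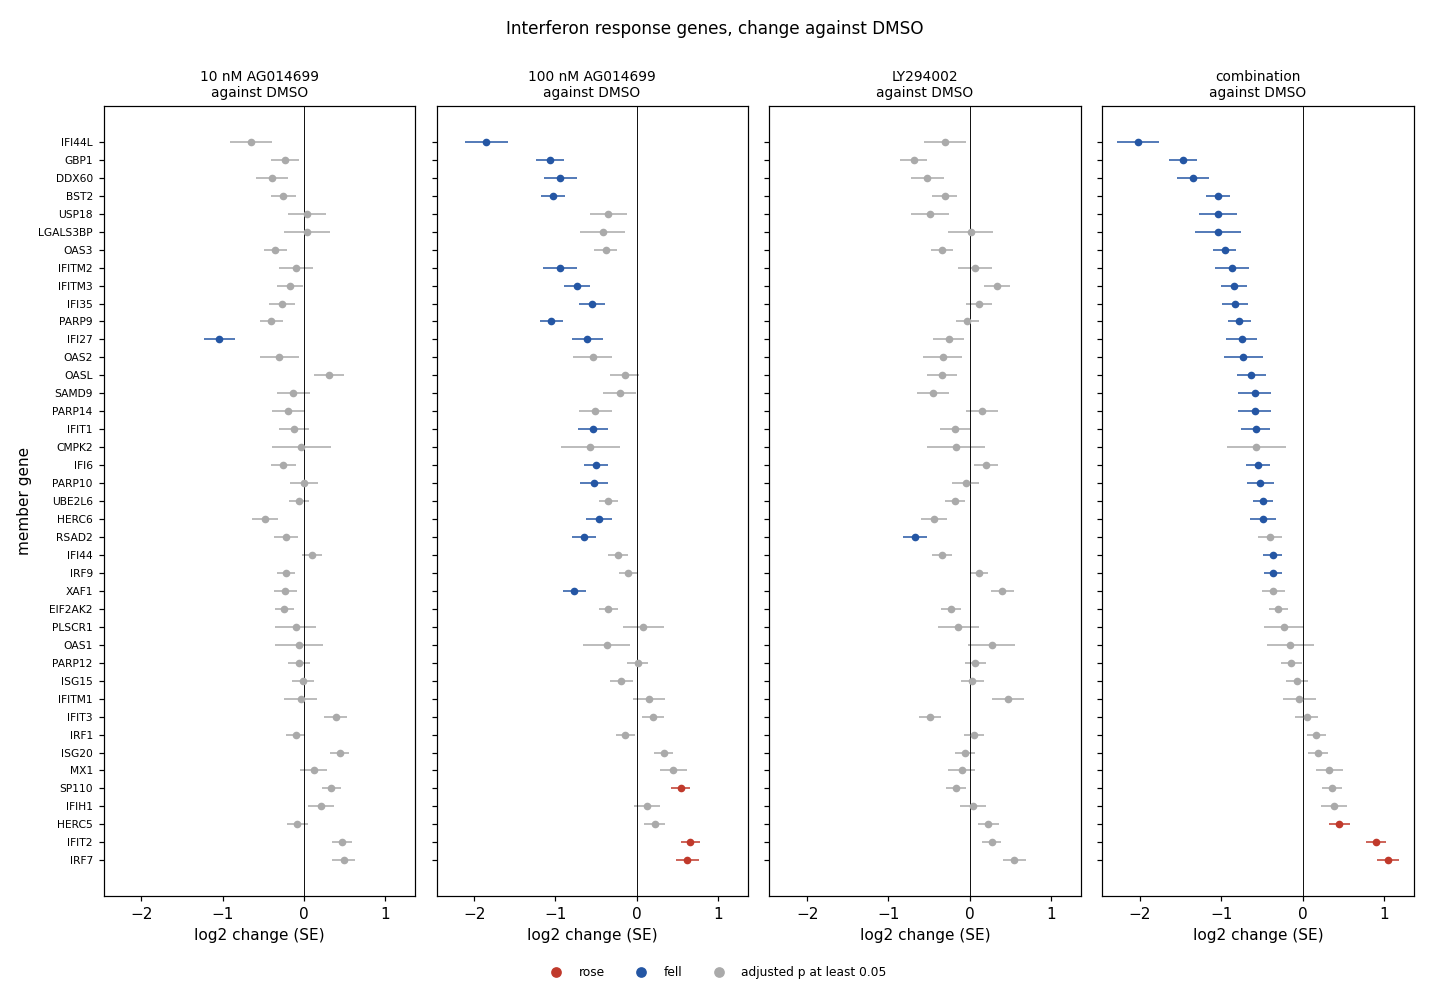
Change in normalized log2 signal against DMSO (x axis, with SE) for each of the 41 measured members (y axis, ordered by the change in the combination), in 4 panels that share the DMSO arrays, n = 3 arrays a group. Blue marks members that fell and red members that rose; 1 member fell at 10 nM, 15 at 100 nM, 1 with LY294002 and 23 with the combination, and the coloured points at the right of the 100 nM panel are IRF7, IFIT2 and SP110.

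IFI44L had the largest change. Its signal was 5.91, 4.74 and 5.08 on the 100 nM arrays, against 7.25, 6.87 and 7.18 on the DMSO arrays, and the groups did not overlap. The gene fell by 1.85 (SE 0.26, limma adjusted p = 0.00014), 3.61-fold lower, but it was detected on only 1 of the 3 arrays at 100 nM, so that level is near background, and its dimmer probe was at 0.30. GBP1, a GTPase best known from the interferon gamma response that attacks membranes around intracellular microbes, was at 8.47, 7.90 and 8.08 on 100 nM arrays, against 9.27, 9.23 and 9.15 on DMSO arrays. It was detected throughout and fell by 1.07 (SE 0.17, limma adjusted p = 0.000361), 2.09-fold lower.

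Of the 4 genes of surface proteins that restrict virus entry and release 3 fell, where 10.8% of all tested genes fell. BST2, or tetherin, which holds budding virus at the cell surface, was at 10.63, 10.78 and 11.12 on 100 nM arrays, against 11.73, 11.90 and 12 on DMSO arrays. The arrays of the 2 groups lay apart, and BST2 fell by 1.03 (SE 0.15, limma adjusted p = 0.000191). IFITM2, a membrane protein that blocks virus fusion, was at 11.11, 12.10 and 11.94 on 100 nM arrays, against 12.89, 12.33 and 12.77 on DMSO arrays. Array 1 of the 100 nM group was the lowest of the series for this gene, and the change was -0.94 (SE 0.21, limma adjusted p = 0.00536). IFITM3 was at 12.15, 12.24 and 11.96 on 100 nM arrays, against 13.13, 12.66 and 12.79 on DMSO arrays, a fall with no overlap (-0.74, SE 0.16, limma adjusted p = 0.00321). The IFITM genes are near-identical in sequence, so a probe of one may also read another, while IFITM1 was not detected on any combination, 10 nM or DMSO array and on 1 array at 100 nM.

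Members of the PARP family that interferon induces are enzymes or binding proteins of ADP-ribose other than the drug's target PARP1, and 2 of 4 fell (10.8% of all tested genes). PARP9, which partners a ubiquitin ligase, was at 7.66, 7.39 and 7.56 on 100 nM arrays, against 8.50, 8.51 and 8.73 on DMSO arrays. All 100 nM arrays were below the DMSO arrays, and the gene fell by 1.05 (SE 0.14, limma adjusted p = 8.4e-05). PARP10, an enzyme that transfers single ADP-ribose units, fell by 0.53 (SE 0.17), PARP14 was at -0.51 without passing and PARP12 was at 0.01.

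Of 7 genes that sense RNA or act on it downstream, 1 fell at 100 nM, DDX60, a share of 14.3% that is near the 10.8% of all tested genes. DDX60, a helicase-like protein linked to RNA sensing, was at 7.23, 6.83 and 6.57 on 100 nM arrays, against 7.64, 8.11 and 7.70 on DMSO arrays, a change of -0.94 (SE 0.20, limma adjusted p = 0.00409). Its 100 nM arrays were all below its DMSO arrays. RSAD2, or viperin, an antiviral enzyme, fell by 0.65 (SE 0.15), HERC6, a ligase-like protein, by 0.47 and IFIT1, which binds viral RNA, by 0.54. XAF1, a pro-apoptotic partner of XIAP, fell by 0.77 (SE 0.14), IFI27 by 0.61, IFI35 by 0.55 and IFI6, a mitochondrial survival protein, by 0.50.

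The members that rose belong to different roles. IRF7, the transcription factor that amplifies type I interferon genes, was at 8.43, 8.20 and 8.30 on 100 nM arrays, against 7.68, 7.46 and 7.92 on DMSO arrays. It rose by 0.62 (SE 0.14, limma adjusted p = 0.00562) with no overlap. IFIT2, an RNA-binding relative of IFIT1, was at 10.39, 10.04 and 10.32 on 100 nM arrays, against 9.66, 9.53 and 9.59 on DMSO arrays, and rose by 0.66 (SE 0.12, limma adjusted p = 0.00164). SP110, a nuclear body protein, rose by 0.54 (SE 0.12), but its most variable probe gave -0.24. IRF1, an early transcription factor of the pathway, was at 9.44, 9.72 and 9.74 on 100 nM arrays, against 9.78, 9.70 and 9.83 on DMSO arrays, which overlapped. IRF9, the DNA-binding partner of STAT2, was at 10.41, 10.49 and 10.37 on 100 nM arrays, against 10.58, 10.57 and 10.45 on DMSO arrays, which overlapped too. ISG15 (-0.19), MX1 (0.45), IFIH1 (0.13) and OAS1 (-0.37), which are among the usual markers of an interferon response, did not pass.

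With each of the 15 arrays left out in turn, 12 of the 18 calls at 100 nM were kept every time. The 6 that were lost at least once were IFIT1, HERC6, PARP10, IFI6, IFI27 and IFI35, with an adjusted p of up to 0.191 for HERC6 without DMSO array 2, 0.163 for IFIT1 without 100 nM array 2, 0.136 for PARP10 (a change of -0.35) and 0.135 for IFI27 (-0.39) without 100 nM array 1, and 0.124 for IFI6 and 0.107 for IFI35 without DMSO array 1.

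The combination of both drugs was set against DMSO next. In combination-treated cells 23 of the 41 members fell (56.1%) and 3 rose (7.32%), while 9.54% and 10.4% of all tested genes did so, 19.9% in all. The median change of the members was -0.49, beside -0.02 for all tested genes. On 25 members every combination array was lower than every DMSO array and on 8 every one was higher (all genes 20.5% and 19.6%). Among the 35 members detected on all arrays, 20 fell and 3 rose. The number called depended on single arrays: it was 26 with all arrays, 15 without combination array 2, 14 without combination array 3 and 16 without DMSO array 3.

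IFI44L was at 5.32, 4.64 and 5.24 on combination arrays, against 7.25, 6.87 and 7.18 on DMSO arrays. It fell by 2.03 (SE 0.26, limma adjusted p = 6.3e-05), 4.09-fold lower, and 2 of the 3 combination arrays detected it. GBP1 was at 7.74, 7.85 and 7.63 on combination arrays, against 9.27, 9.23 and 9.15 on DMSO arrays, a fall of 2.78-fold (-1.47, SE 0.17, limma adjusted p = 2.2e-05). DDX60 was at 6.53, 6.69 and 6.17 on combination arrays, against 7.64, 8.11 and 7.70 on DMSO arrays (-1.35, SE 0.20, limma adjusted p = 0.000274), and neither gene's groups overlapped.

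BST2 was at 10.69, 10.83 and 10.99 on combination arrays, against 11.73, 11.90 and 12 on DMSO arrays. It fell by 1.04 (SE 0.15, limma adjusted p = 0.00018), and IFITM2 (-0.87) and IFITM3 (-0.85) fell with it, so that 3 of the 4 surface restriction genes fell (9.54% of all tested genes). LGALS3BP, a secreted galectin-binding glycoprotein, was at 7.07, 6.98 and 6.94 on combination arrays, against 8.38, 7.94 and 7.79 on DMSO arrays. The groups lay apart and it fell by 1.04 (SE 0.28, limma adjusted p = 0.0163), but the call was lost without combination array 3 (adjusted p = 0.0506) and without DMSO array 1 (adjusted p = 0.0734).

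**Figure D2:**
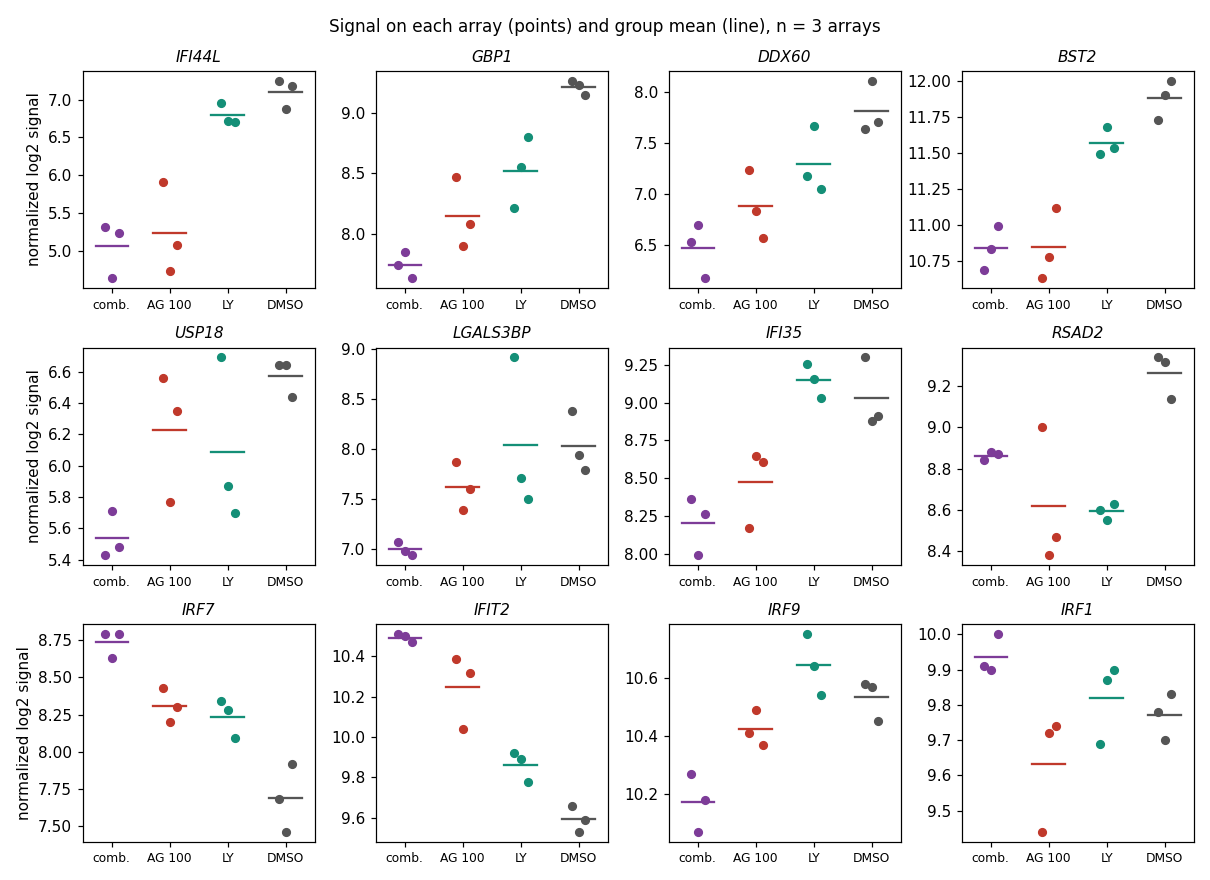
Normalized log2 signal (y axis, scaled separately for each gene) of 12 members on each array (points) with the group mean (line), for the combination, 100 nM AG014699, LY294002 and DMSO, n = 3 arrays a group. The combination arrays of IFI44L, GBP1, DDX60, BST2, USP18, LGALS3BP, IFI35, IRF9 and RSAD2 lie below all DMSO arrays of that gene. Those of IRF7, IFIT2 and IRF1 lie above them. RSAD2 and IRF1 were not called in that comparison.

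Of 5 genes listed here under ISG15 conjugation, 3 fell and 1 rose in combination-treated cells, where 9.54% and 10.4% of all tested genes did so. USP18, which removes ISG15 from proteins and damps the receptor, was at 5.43, 5.71 and 5.48 on combination arrays, against 6.64, 6.64 and 6.44 on DMSO arrays. It fell by 1.04 (SE 0.23, limma adjusted p = 0.00557) with no overlap. UBE2L6, the conjugating enzyme, fell by 0.49 (SE 0.12) and HERC6 by 0.49 (SE 0.16), whereas HERC5, the main ligase, rose by 0.45 (SE 0.13, limma adjusted p = 0.0249). The HERC5 call was lost without any 1 of the combination or DMSO arrays, at limma adjusted p-values of 0.054 to 0.0881. Those of HERC6 (up to 0.177) and UBE2L6 (0.0585 without combination array 2) were also lost with some array left out. ISG15 itself was at 11.16, 10.90 and 11.08 on combination arrays, against 11.01, 11.07 and 11.27 on DMSO arrays, which overlapped (-0.07, SE 0.14).

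Among the oligoadenylate synthetase genes, which make the messenger that activates RNase L, OAS3 fell by 0.96 (SE 0.14, limma adjusted p = 0.000274). OAS2 was undetected on all 3 combination arrays and detected on only 2 of the 3 DMSO arrays. It fell, at least 1.26-fold lower by a bound that includes the undetected DMSO array (limma adjusted p = 0.0465), so both levels are near background. OASL, which lacks that enzyme activity and supports RNA sensing, fell by 0.63 (SE 0.18), while OAS1 was at -0.15. The RNA sensor gene IFIH1 was at 0.38 and EIF2AK2, the kinase PKR that halts translation, at -0.30, and neither passed.

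IRF7 was at 8.79, 8.63 and 8.79 on combination arrays, against 7.68, 7.46 and 7.92 on DMSO arrays, and rose by 1.05 (SE 0.14, limma adjusted p = 0.000103). IFIT2 was at 10.51, 10.50 and 10.47 on combination arrays, against 9.66, 9.53 and 9.59 on DMSO arrays, and rose by 0.90 (SE 0.12, limma adjusted p = 0.000139). Both were higher on every combination array. IRF9 was at 10.27, 10.07 and 10.18 on combination arrays, against 10.58, 10.57 and 10.45 on DMSO arrays. It fell by 0.36 (SE 0.11, limma adjusted p = 0.0344), and the call was lost without combination array 2 (0.131), combination array 3 (0.0841), DMSO array 1 (0.1) or DMSO array 2 (0.0941). IRF1 was at 9.91, 9.90 and 10.00 on combination arrays, against 9.78, 9.70 and 9.83 on DMSO arrays, and was not called.

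PARP9 (-0.78), PARP10 (-0.52) and PARP14 (-0.59) fell in combination-treated cells, and PARP12 was at -0.14. PARP14 had 1 combination array, at 8.04, above the lowest DMSO array, at 8.03. IFI35, which binds the interferon-induced partner NMI, fell by 0.83 (SE 0.16), IFI27 by 0.75, IFIT1 by 0.58, IFI6 by 0.55, IFI44 by 0.37 and SAMD9, a restriction factor of poxviruses, by 0.59. MX1 (0.33), ISG20 (0.19), CMPK2 (-0.57), XAF1 (-0.36), RSAD2 (-0.40), SP110 (0.36), IFIT3 (0.05), PLSCR1 (-0.23) and IFITM1 (-0.04) were not called. Leaving out each array in turn, 13 of the 26 calls were kept every time, and the other 13 were LGALS3BP, IRF9, OAS2, OASL, IFIT1, SAMD9, HERC5, HERC6, PARP10, PARP14, IFI44, IFI6 and UBE2L6, with adjusted p-values of up to 0.185 (OAS2 without DMSO array 3).

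With LY294002 alone, 1 of the 41 members was called, beside 1.12% of all tested genes, 0.512% higher and 0.61% lower. RSAD2 was at 8.60, 8.55 and 8.63 on LY294002 arrays, against 9.34, 9.32 and 9.14 on DMSO arrays. It fell by 0.67 (SE 0.15, limma adjusted p = 0.044) with a wide gap between the groups. That call was lost without any 1 of the LY294002, DMSO, 10 nM or combination arrays, at adjusted p-values of 0.0539 (10 nM array 1) to 0.147 (DMSO array 2). GBP1 had a slightly larger change, -0.69 (SE 0.17), but did not pass, and neither did IRF7 at 0.55 or DDX60 at -0.52. GBP1 was at 8.21, 8.55 and 8.80 on LY294002 arrays, all lower than the DMSO arrays. BST2 was at 11.49, 11.68 and 11.53 on LY294002 arrays, also all lower, with a change of -0.31 (SE 0.15). IRF7 was at 8.34, 8.28 and 8.09 on LY294002 arrays, all above DMSO, IRF9 at 10.75, 10.64 and 10.54, and IRF1 at 9.69, 9.87 and 9.90. The median member change was -0.10, beside -0.01 for all tested genes.

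The lower dose of AG014699 gave 1 call among the 41 members at 10 nM, beside 2.37% of all tested genes, 1.74% higher and 0.634% lower. IFI27, a small mitochondrial membrane protein, was at 4.80, 4.74 and 4.58 on 10 nM arrays, against 5.71, 5.75 and 5.79 on DMSO arrays. It was undetected on all 3 arrays at 10 nM and at least 1.58-fold lower (limma adjusted p = 0.00703), while at 100 nM it was at 4.69, 5.16 and 5.56 and was detected on 2 of 3 arrays. Without the 5 arrays numbered 1, its adjusted p was 0.0509 at 10 nM.

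Along the dose series, 7 of the 41 members were lower at 100 nM than at 10 nM and none higher (17.1% lower, beside 4.88% lower and 4.71% higher over all tested genes, 9.58% in all). IFI44L averaged 7.10 ± 0.20 in DMSO, 6.45 ± 0.28 at 10 nM and 5.25 ± 0.60 at 100 nM (SD, n = 3 each). GBP1 averaged 9.22 ± 0.06 in DMSO, 8.99 ± 0.12 at 10 nM and 8.15 ± 0.29 at 100 nM. BST2 averaged 11.87 ± 0.14 in DMSO, 11.63 ± 0.16 at 10 nM and 10.84 ± 0.25 at 100 nM. In all 3 genes the 10 nM mean lay between the others and closer to DMSO. The differences between 100 nM and 10 nM were -1.20 (SE 0.26) for IFI44L, -0.84 (SE 0.17) for GBP1 and -0.78 (SE 0.15) for BST2.

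PARP9 (-0.65), IFITM2 (-0.85), IFITM3 (-0.57) and XAF1 (-0.54) also fell at 100 nM relative to 10 nM. PARP9 was at 7.66, 7.39 and 7.56 on 100 nM arrays, against 8.14, 8.10 and 8.33 on 10 nM arrays. IFITM2 was at 11.11, 12.10 and 11.94 on 100 nM arrays, against 12.62, 12.55 and 12.52 on 10 nM arrays. IFITM3 was at 12.15, 12.24 and 11.96 on 100 nM arrays, against 12.84, 12.58 and 12.64 on 10 nM arrays. No array of these genes crossed between the doses. The count of 7 became 4 without any 1 of the 3 arrays at 10 nM; the calls of IFITM2, IFITM3 and XAF1 were each lost with some array left out, at adjusted p-values of up to 0.109, and without 100 nM array 1 the change of IFITM2 was -0.54 (0.0579). At 10 nM, IRF7 was at 8.03, 8.35 and 8.15, IRF9 at 10.26, 10.27 and 10.40, IRF1 at 9.60, 9.75 and 9.67, and none of them differed from DMSO or from 100 nM at the threshold.

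**Figure D3:**
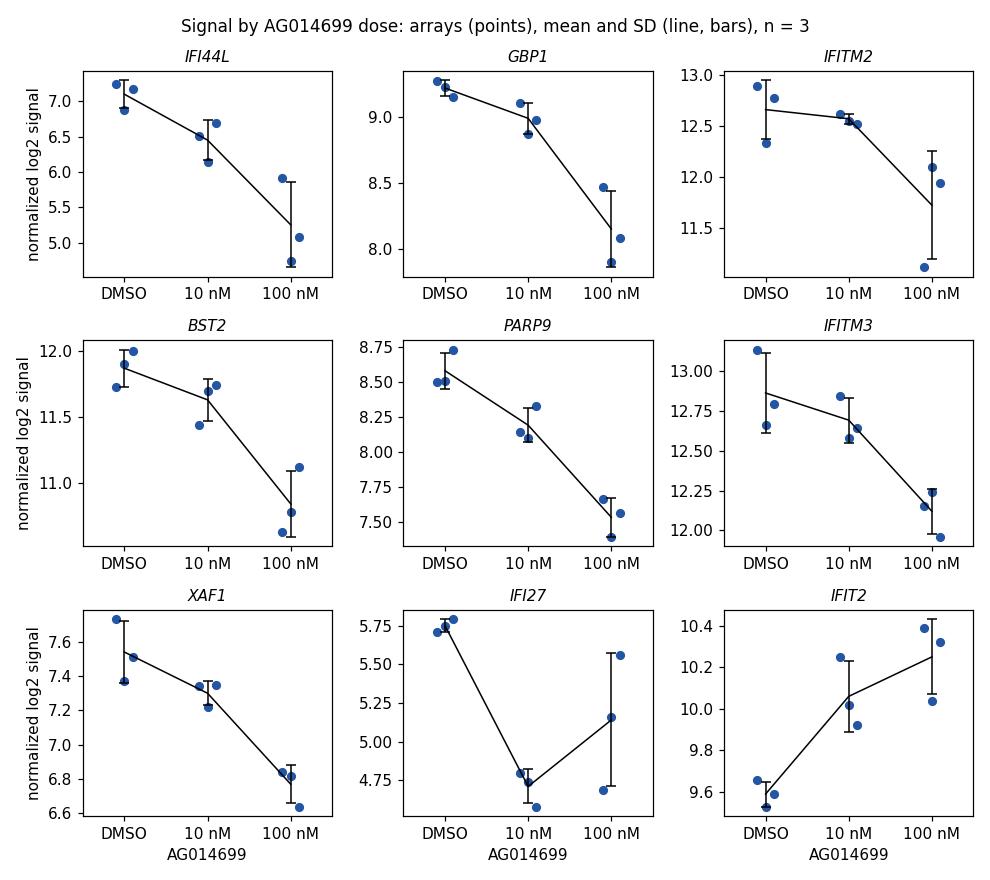
Normalized log2 signal (y axis, scaled separately for each gene) of 9 members in DMSO and at 10 and 100 nM AG014699 (x axis), with each array as a point and the mean with its SD as a line with bars, n = 3 arrays a group. In 7 of the panels (IFI44L, GBP1, IFITM2, BST2, PARP9, IFITM3 and XAF1) all 100 nM arrays lie below all 10 nM arrays; IFI27 is lowest at 10 nM and IFIT2 is higher at 100 nM than in DMSO.

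The combination was then set against each drug alone. Relative to 100 nM AG014699, none of the 41 members passed in the limma fit, where 0.333% of all tested genes did (0.106% higher, 0.228% lower). Under each of the 29 other settings tried the count was 0 as well. The nearest was OAS3, at 7.16, 7.33 and 6.95 on combination arrays, against 7.86, 7.74 and 7.58 on 100 nM arrays (-0.58, SE 0.14, limma adjusted p = 0.111). USP18 was at -0.69 (SE 0.23), LGALS3BP at -0.62 (SE 0.28), IRF7 at 0.43 (SE 0.14) and XAF1 at 0.41 (SE 0.14), all past an unadjusted p of 0.05 and none past the adjusted threshold. BST2 differed by -0.01 (SE 0.15) and IFITM2 by 0.07 (SE 0.21). A p that misses the threshold does not show that the groups were alike.

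Relative to LY294002, 14 of the 41 members fell in combination-treated cells (34.1%) and 4 rose (9.76%), beside 8.86% and 9.42% of all tested genes, 18.3% in all. IFI44L was at 5.32, 4.64 and 5.24 on combination arrays, against 6.95, 6.72 and 6.71 on LY294002 arrays (-1.73, SE 0.26, limma adjusted p = 0.000315). IFITM3 was at 12.18, 11.89 and 11.95 on combination arrays, against 13.43, 13.13 and 13.03 on LY294002 arrays (-1.19, SE 0.16, limma adjusted p = 0.000104). Neither gene's arrays overlapped between the groups. IFI35 was at 8.36, 7.99 and 8.26 on combination arrays, against 9.26, 9.16 and 9.03 on LY294002 arrays (-0.95, SE 0.16, limma adjusted p = 0.000944). IFITM2 was at 11.77, 11.82 and 11.78 on combination arrays, against 12.79, 12.86 and 12.54 on LY294002 arrays (-0.94, SE 0.21, limma adjusted p = 0.00654). These too lay apart.

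LGALS3BP was at 7.07, 6.98 and 6.94 on combination arrays, against 8.92, 7.71 and 7.50 on LY294002 arrays, where array 1 stood well above the other 2. It fell by 1.05 (SE 0.28, limma adjusted p = 0.0171), and the call was lost without combination array 2 (0.0509) or combination array 3 (0.054); without LY294002 array 1 the change was -0.61 (0.0418). DDX60 was at 6.53, 6.69 and 6.17 on combination arrays, against 7.17, 7.66 and 7.05 on LY294002 arrays (-0.83, SE 0.20, limma adjusted p = 0.0105), and was lost without combination array 3 (0.0566) or LY294002 array 2 (0.0528). GBP1 (-0.78), PARP9 (-0.76), XAF1 (-0.76), PARP14 (-0.75), IFI6 (-0.75), BST2 (-0.73), OAS3 (-0.62) and IRF9 (-0.47) also fell. IFIT2 (0.63), IFIT3 (0.53), SP110 (0.53) and IRF7 (0.50) rose, a share of 9.76% that is near the 9.42% of all tested genes. Of the 3 probes of IFIT3 only 1 was called and another was at -0.14. For SP110 1 of 4 probes was called and the lowest was at 0.3, and for IRF7 1 of 2 was called and the other was at 0.29. IRF9 was at 10.27, 10.07 and 10.18 on combination arrays, against 10.75, 10.64 and 10.54 on LY294002 arrays, and the groups did not overlap. PARP14, IRF7 and IFIT3 each lost their call with some array left out, PARP14 without combination array 2 (0.0644) or LY294002 array 1 (0.0559), IRF7 with up to 0.0788 (without LY294002 array 3) and IFIT3 with up to 0.0654 (without combination array 2). In all, 13 of the 18 calls were kept with each array left out.

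**Figure D4:**
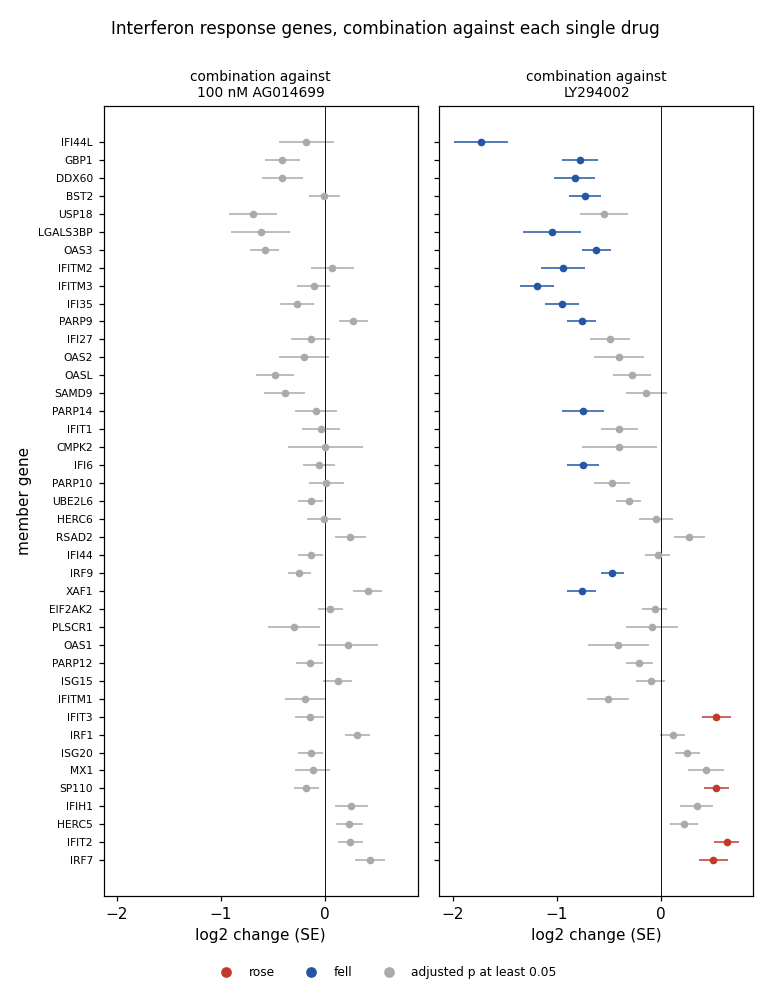
Change in normalized log2 signal (x axis, with SE) of the 41 measured members (y axis, in the order of their change against DMSO) in combination-treated cells, against 100 nM AG014699 at the left and against LY294002 at the right, n = 3 arrays a group. No member is coloured at the left; at the right 14 members fell (blue) and 4 rose (red), from -1.73 for IFI44L to 0.63 for IFIT2.

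Whether LY294002 acted differently with and without AG014699 was tested as an interaction, in which the effect of LY294002 without AG014699 was taken from its effect beside 100 nM AG014699. None of the 41 members passed in the limma fit or under the 29 other settings. Over all tested genes 0.00813% passed in the limma fit. Past an unadjusted p of 0.05 were RSAD2 at 0.91 (SE 0.21, limma adjusted p = 0.39), IRF9 at -0.36 (SE 0.16) and IFITM1. The share of all genes past that unadjusted threshold was not counted. IFITM1 was undetected on all combination and DMSO arrays, so no size is given for it. RSAD2 was at 8.84, 8.88 and 8.87 on combination arrays, 9, 8.38 and 8.47 on 100 nM arrays and 8.60, 8.55 and 8.63 on LY294002 arrays, against 9.34, 9.32 and 9.14 on DMSO arrays. All arrays of the combination, 100 nM AG014699 and LY294002 were lower than the DMSO arrays, and those of the combination were no lower than those of LY294002.

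Other genes of the pathway were read from lists that do not overlap with the members. Of 14 interferon ligands and receptors 6 receptor genes were measured, of which 2 fell in combination-treated cells, IFNAR2 at -0.60 (limma adjusted p = 0.0206), a chain of the type I receptor, and IL10RB at -0.36 (limma adjusted p = 0.0373), a chain of the interferon lambda receptor, where 9.54% of all tested genes fell. IL10RB also fell at 100 nM (-0.41), 1 of the 6 (16.7%), beside 10.8% of all tested genes. No receptor rose in either comparison, where 10.7% of all tested genes rose at 100 nM and 10.4% in the combination. With 6 genes measured, these counts are no result about the receptors. The ligand genes had no probe named in the annotation used here and were not analysed here.

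Of 29 JAK-STAT and regulator genes 25 were measured. At 100 nM 3 rose (12%) and 2 fell (8%), near the 10.7% and 10.8% of all tested genes, and in the combination 3 rose (12%) and 1 fell (4%), beside 10.4% and 9.54%. These shares are no result about the list, and the genes below are single calls. SOCS2, a feedback inhibitor of cytokine receptors, rose by 0.69 at 100 nM and by 0.92 in the combination, while SOCS1, the inhibitor that acts on the interferon receptor kinases, fell by 0.69 at 100 nM and was at 6.11 in the combination against 6.60 in DMSO without passing. IRF8, a transcription factor of the same family as IRF7, rose by 0.86 in the combination, and the phosphatase gene PTPN11 fell by 0.62 at 100 nM and by 0.61 in the combination.

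Of 25 nucleic acid sensing genes 19 were measured, of which 1 rose and 1 fell at 100 nM (5.26% each, beside 10.7% and 10.8% of all tested genes) and none rose and 2 fell in the combination (10.5% lower, beside 9.54%), at or below the background. IKBKE, a kinase that activates IRF3 and IRF7, fell by 1.25 in the combination (limma adjusted p = 0.00131). The adaptor gene MYD88 fell by 0.68 at 100 nM and by 0.59 in the combination, whereas the DNA sensor gene IFI16 rose by 0.72 at 100 nM. CGAS, the enzyme that senses cytosolic DNA, averaged 8.65 in the combination and 8.74 at 100 nM, against 8.68 in DMSO, and was not called in either comparison.

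Of 45 further interferon targets 32 were measured. At 100 nM 2 rose (6.25%) and 3 fell (9.38%), below the 10.7% and 10.8% of all tested genes, and in the combination none rose and 6 fell (18.8%, beside 9.54%). The median changes were -0.19 and -0.28, beside -0.03 and -0.02 for all tested genes. CASP1, the inflammasome protease, fell by 1.16 in the combination (limma adjusted p = 0.00145), and the immunoproteasome subunit PSMB9 fell by 0.89 at 100 nM and by 0.93 in the combination. PML, the scaffold of nuclear bodies, fell by 0.78 at 100 nM. GBP5, a relative of GBP1 in the guanylate-binding family, went the other way at 100 nM and rose by 1.14 (limma adjusted p = 0.00214).

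Probes of the same gene could be compared for 12 members. Both probes of GBP1, PARP9 and IFI6 fell at 100 nM and in the combination, and both probes of IRF7 rose in both. None of the 3 probes of IFIT3 was called against DMSO, and they lay between -0.38 and 0.20 at 100 nM. Probes disagreed for IFI44L, where the dimmer probe, detected on 10 of 15 arrays, was at 0.30 at 100 nM and -0.09 in the combination. Of the 4 probes of SP110, 3 rose at 100 nM and the other, detected on 7 of 15 arrays, was at -0.24. For OAS3 the dimmer probe, detected on 5 arrays, was at -0.11 in the combination against DMSO and at 0.01 against LY294002, and for XAF1 the dimmer probe was at -0.12 at 100 nM, and none of these 3 values passed.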

How the data were processed

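Probe intensity values and detection p-values were deposited by the authors for 48107 probes on 15 Illumina HumanHT-12 arrays; per the file headers these are signal and detection p, and the software is not given in the sources used here. Deposited medians of 114 to 115 on every array show that intensities had been scaled between arrays. Array 1 of 100 nM AG014699 held whole numbers only. The authors also deposited log2 values, which equal the probe-centred log2 intensity to within 1e-07, for use as an alternative. Gene names come from the platform annotation of 24245 probes.

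R 4.3.3 and limma 3.58.1 were used. Intensities were background corrected and normalized with neqc (offset 16). The filter kept probes with a detection p under 0.05 on 3 or more arrays, and the brightest probe stood for its gene. One linear model over all arrays (lmFit, eBayes), with a mean for each group, gave 8 comparisons, with Benjamini-Hochberg adjustment over 12302 genes. Where a gene was undetected on all 3 arrays of a group, its fold is a lower bound set by the lowest detected signal.

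The members and lists were chosen with earlier results of these data known. Arrays are given for up to 6 called members with the largest change per comparison and for IRF1, IRF7, IRF9 and BST2; other pathway genes by the largest changes. CGAS, ISG15, USP18, IFIT2 and OAS3 were added after their values were seen. The procedure was run on simulated data with known changes and independent arrays, as a check of the code only. Those data held no effect shared by replicate number. Alternatives changed background correction, normalization, filter, probe, fit and arrays. The headers give no slide or scan, so no batch was tested.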

Additional observations from a re-analysis of the deposited data

How the results depend on the processing

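Of 71 calls of a member in a comparison, 31 were kept under every other setting checked in which the gene had a value. These were at most 28 settings for a call, because the setting with every probe on its own was left out of this check. Reversed were SP110 at 100 nM against DMSO (-0.24) and OAS3 in the combination against LY294002 (0.01), both with the most variable probe. These are different probes of the gene, detected on only 7 arrays for SP110 and 5 for OAS3. With 1 array left out, the number of called members was 1 to 2 at 10 nM, 13 to 18 at 100 nM, 0 to 2 with LY294002, 14 to 27 in the combination, 4 to 8 for 100 nM against 10 nM, and 14 to 20 for the combination against LY294002. The number at 10 nM (1) was 3 with quantile normalization only, 2 with the authors' value table, 3 with the intensity as deposited, 2 with genes detected on all 15 arrays, 4 with array weights, 3 with trended robust variance and 0 without the arrays numbered 1. With LY294002 (1) it was 3, 4, 3, 3, 3 and 2 under the first 4 of these, array weights and robust variance, and 0 with normexp and median scaling, the most variable probe, every probe on its own, the compared groups only, or without the arrays numbered 1. The combination against DMSO (26) gave 17 with the most variable probe, and 100 nM against 10 nM (7) gave 3 with the compared groups only and 4 without the arrays numbered 1. With the replicate number as a block, the counts were 2 at 10 nM, 20 at 100 nM, 26 in the combination against DMSO, 9 for 100 nM against 10 nM and 19 for the combination against LY294002. Deviations from the group means correlated at a median of 0.16 between arrays of the same number, and 21 of 30 such pairs were over 0.1. The median of -0.086 between arrays of different numbers adds nothing to this, because deviations cancel within each group. That 12 of 15 arrays correlated best with their own number rests on the same correlations. The labels name no pairing by number, so the fit without the block was kept. The main calls therefore do not account for any effect shared by arrays of the same number. The cause of these correlations and of the differing counts was not tested. Slide and scan as a block were not run, because the headers give neither. Signals near background limit IFI44L, IFI27, OAS2 and IFITM1.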
